A study of Arabidopsis thaliana with 8 samples.

Results

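Transcripts of 6 Arabidopsis thaliana genes of mitosis and DNA replication were followed across roots and root protoplasts of hira and wild-type (WT) plants: AUR1, AUR2, KINESIN-12B, PRL, TOPII and 3xHMG-box2. The genes were chosen by symbol, and each has 1 probe set (a group of short probes that reports 1 transcript) that the platform annotation assigns to that gene alone, so 6 of the 22746 probe sets tested are described here. All 6 transcripts were lower in protoplasts than in roots, in hira plants and in WT plants. 3xHMG-box2 had the largest change of the 6 in each genotype and KINESIN-12B the smallest in WT, while PRL, the smallest in hira, was the gene whose level in protoplasts differed most between the genotypes.

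The RNA of 4 groups was hybridised to 8 single-channel Affymetrix arrays, 2 for each group: hira protoplasts, hira roots, WT protoplasts and WT roots. Protoplasts are cells freed from the root by enzymes that digest the wall, and the stated question is the effect of the hira mutation on dedifferentiation. HIRA belongs to the chaperones that load histone H3.3 onto DNA independently of replication. The annotation names no single-gene probe set for HIRA, so its own transcript was no check of the labels. The labels give the hira allele no name and the plants no age, and they list enzyme digestion as the treatment of root and protoplast samples alike. Plants of every group grew from cold-treated seed on vertical MS plates, and total RNA was labelled with biotin by a 3′ amplification kit. The origin of the arrays within a group is not stated, and the p-values then reflect the spread between these samples alone, which may be technical.

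Plant cells that divide copy their DNA once, condense and separate the chromosomes on a spindle, and build a new wall from a microtubule array called the phragmoplast. In roots this takes place mainly in the meristem near the tip, and many transcripts used for it are present only in cycling cells. Aurora kinases act on the spindle and the chromosomes, the MCM helicase unwinds DNA at origins, topoisomerase II frees the copied strands from each other, and kinesins of class 12 organise the phragmoplast.

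Values are the deposited array signals, treated as log2 and centred so that each probe set has a median of 0 over the 8 arrays. A value above 0 is therefore high for that gene only, levels of different genes cannot be set against each other, and presence of root cell types cannot be read from marker levels. Change means the fitted difference between group means on this log2 scale, with the standard error (SE) of a limma fit to all arrays, and a change was called where its p, adjusted by Benjamini-Hochberg across the 22746 probe sets, was under 0.05. In bulk samples, fewer dividing cells and less of the transcript per cell cannot be told apart.

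AUR1 and AUR2 encode closely related Aurora kinases that in Arabidopsis locate to the spindle and the forming cell plate. AUR1 had values of -1.28 and -1.43 in hira protoplasts, against 1.94 and 2.004 in hira roots. In WT it had -2.08 and -2.08 in protoplasts, against 1.497 and 1.28 in roots. The root arrays were high and the protoplast arrays low in each genotype, with no overlap. AUR1 fell by 3.33 in hira protoplasts (SE 0.09, limma adjusted p = 0.000366), a level 10.04-fold below that of hira roots, and fell by 3.47 in WT protoplasts (SE 0.09, adjusted p = 0.000431). AUR2 had -1.21 and -1.32 in hira protoplasts, against 1.77 and 1.996 in hira roots. Its WT values were -1.58 and -1.63 in protoplasts, against 1.21 and 1.75 in roots. The order of the groups was the same as for AUR1, highest in hira roots and lowest in WT protoplasts. AUR2 fell by 3.15 in hira protoplasts (SE 0.20, adjusted p = 0.00178) and fell by 3.09 in WT protoplasts (SE 0.20, adjusted p = 0.00176). Whether the 2 probe sets pick up each other's transcript was not tested, since no probe sequences were used here.

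KINESIN-12B, also called PAKRP1L, encodes a kinesin of the phragmoplast midline that keeps microtubule plus ends in order during cell plate formation. It had -1.10 and -1.10 in hira protoplasts, against 1.16 and 0.81 in hira roots, and -0.81 and -0.81 in WT protoplasts, against 0.88 and 1.09 in WT roots. It was the only one of the 6 genes with its lowest values in hira protoplasts, and its root arrays overlapped between the genotypes. KINESIN-12B fell by 2.09 in hira protoplasts (SE 0.13, adjusted p = 0.00188) and fell by 1.80 in WT protoplasts (SE 0.13, adjusted p = 0.00245), that is to levels 4.25-fold and 3.48-fold below the roots of the same genotype.

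PRL (PROLIFERA) encodes MCM7, a subunit of the hexameric MCM helicase that is loaded at replication origins. Its values were -0.29 and -0.77 in hira protoplasts, against 1.51 and 1.14 in hira roots. WT protoplasts had -3.13 and -3.13, against 0.56 and 0.29 in WT roots. The groups did not overlap anywhere: hira roots were highest, then WT roots, then hira protoplasts, with WT protoplasts far below. PRL fell by 1.85 in hira protoplasts (SE 0.22, adjusted p = 0.00704) and fell by 3.56 in WT protoplasts (SE 0.22, adjusted p = 0.00164), or 3.61-fold and 11.8-fold.

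TOPII encodes DNA topoisomerase II, which passes one DNA duplex through another. It had -1.90 and -1.71 in hira protoplasts, against 2.43 and 1.85 in hira roots, and -2.41 and -2.41 in WT protoplasts, against 1.71 and 1.98 in WT roots. The protoplast arrays of the genotypes did not overlap, with hira above WT, while the root arrays did. TOPII fell by 3.95 in hira protoplasts (SE 0.22, adjusted p = 0.00139) and fell by 4.25 in WT protoplasts (SE 0.22, adjusted p = 0.00122).

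3xHMG-box2 encodes a protein with 3 HMG-box DNA-binding domains that associates with condensed chromosomes in mitosis. It had -2.46 and -2.46 in hira protoplasts, against 2.94 and 2.68 in hira roots, and -2.50 and -2.71 in WT protoplasts, against 2.46 and 3.001 in WT roots. The root arrays of the genotypes overlapped, and the hira protoplast arrays lay just above those of WT. 3xHMG-box2 fell by 5.27 in hira protoplasts (SE 0.21, adjusted p = 0.000737) and fell by 5.34 in WT protoplasts (SE 0.21, adjusted p = 0.00082), which is 38.5-fold and 40.4-fold. A more negative change than that of 3xHMG-box2 was found for 0.347% of all probe sets in hira and 0.185% in WT.

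**Figure D1:**
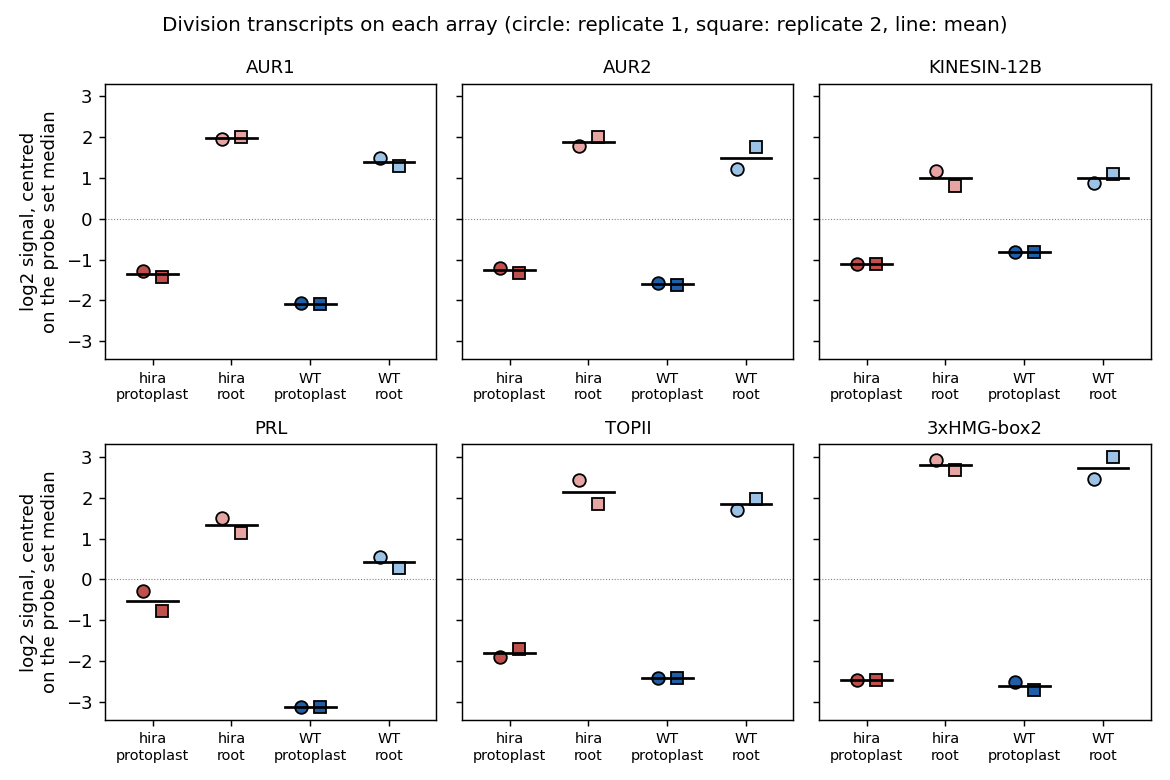
Centred log2 signal of each gene on each of the 8 arrays, by group, with circles for replicate 1, squares for replicate 2 and a line at the group mean of 2 arrays. Protoplast arrays lie below root arrays in every panel and genotype, and PRL alone has a wide gap between hira protoplasts (-0.29 and -0.77) and WT protoplasts (-3.13 and -3.13).

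Across the 6 genes, 6 of 6 were called lower in hira protoplasts than in hira roots, where 12.2% of all probe sets were called lower, and 6 of 6 in WT protoplasts than in WT roots, where 13.9% were. Both protoplast arrays lay below both root arrays for 6 of 6 genes in each genotype. Over all probe sets this held for 53.5% in hira and 26.8% in WT, so with 2 arrays a group it is a weak criterion on its own. The median change of the 6 genes was -3.24 in hira and -3.51 in WT, beside a median over all probe sets of -0.02 and 0.03. Averaged over the genotypes, all 6 fell, from -1.94 for KINESIN-12B to -5.30 for 3xHMG-box2, with adjusted p between 8.66e-05 and 0.000717 (limma), and 18.3% of all probe sets were called lower in that average. The genes were chosen with earlier results of these data known, so their number adds nothing to the gene-by-gene tests.

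These falls did not depend on the arrays of the other genotype. Fitted to the 4 hira arrays alone, the 6 genes kept adjusted p from 0.00629 for 3xHMG-box2 to 0.0428 for PRL, and with the 4 WT arrays alone from 0.0175 for AUR1 and TOPII to 0.0302 for AUR2. Each of these calls held under all 15 alternatives tried. When a pair of groups is compared, leaving out either array of a group outside the pair gives the same fit. The 15 therefore count some fits more than once, here and in the counts of lost calls below.

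Several of the protoplast values were nearly equal between the arrays of a group. The gap between the WT protoplast arrays was under 0.01 for 4 of the 6 genes, AUR1, PRL, TOPII and KINESIN-12B, and that between hira protoplast arrays for 2, 3xHMG-box2 and KINESIN-12B. Gaps this small occurred for 16.4% of all probe sets in WT protoplasts, 21.7% in hira protoplasts, 18.1% in hira roots and 3.81% in WT roots. In the root groups they occurred for none of the 6 genes. Among probe sets with their lowest mean in the group, the shares were 4.59% in WT protoplasts and 46.4% in hira protoplasts. With an SD of at least 0.5 as well, these shares were 4.36% and 15.3%. Centred values do not show whether such signals sit at the bottom of the measurable range. If they do, the falls of these genes are lower bounds and their small SE does not measure precision.

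Comparison of the genotypes asked whether hira changes these transcripts within roots, within protoplasts, or in the response itself. In roots, AUR1 was higher in hira by 0.58 (SE 0.09, adjusted p = 0.0305), and it was 1 of the 6 genes called, where 4.91% of all probe sets were called higher. That call is not firm: it was lost in 11 of 15 alternatives, among them the 4 root arrays alone (adjusted p = 0.152). Over the alternatives the adjusted p ran from 0.0212 to 0.753 and the change from 0.12 to 0.69. PRL differed by 0.90 in hira roots (SE 0.22, 95% interval 0.33 to 1.46, adjusted p = 0.0740), and both hira root arrays lay above both WT root arrays for AUR1, AUR2 and PRL, as for 23.5% of all probe sets. The intervals of the other 4 differences in roots all contained 0, from -0.36 to 0.35 for KINESIN-12B, -0.47 to 0.62 for 3xHMG-box2, -0.28 to 0.87 for TOPII and -0.11 to 0.91 for AUR2.

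In protoplasts the genotypes differed most in PRL, which was 2.60 higher in hira than in WT (SE 0.22, adjusted p = 0.0132), a 6.07-fold difference and a higher value than 99.6% of probe sets had. AUR1 was 0.72 higher in hira protoplasts (SE 0.09, adjusted p = 0.0268). These were 2 of the 6 genes, where 5.05% of all probe sets were called higher and 3.24% lower. Both hira arrays lay above both WT arrays for every gene but KINESIN-12B, an order that 24.3% of all probe sets had, and below them for KINESIN-12B, as for 51.4%. The PRL call was lost without hira protoplast replicate 1 (adjusted p = 0.0626) and with the protoplast arrays alone (adjusted p = 0.0528), while the change stayed between 2.36 and 2.84 and adjusted p between 0.00786 and 0.0626 over 15 alternatives. The AUR1 call was lost in 9 of 15 alternatives, with a change of 0.15 after quantile normalization and adjusted p from 0.0248 to 0.572. KINESIN-12B ran the other way, at -0.29 in hira against WT protoplasts (SE 0.13, adjusted p = 0.222). It was called lower in hira with the protoplast arrays alone (adjusted p = 0.0487) and after quantile normalization, where the change was -0.83 (adjusted p = 0.0316). The arrays of KINESIN-12B differed by 0.0055 in hira and 0.0023 in WT protoplasts, and those of PRL by 0.0011 in WT protoplasts. If such signals sit at the bottom of the measurable range, these p-values rest on a spread that does not measure precision. Centred values do not show whether they do. TOPII stood at 0.60 (95% interval 0.03 to 1.18, adjusted p = 0.151), AUR2 at 0.34 (-0.17 to 0.85, adjusted p = 0.293) and 3xHMG-box2 at 0.15 (-0.40 to 0.69, adjusted p = 0.659). The sign of the small differences depended on scaling: after quantile normalization AUR2 stood at -0.28 and 3xHMG-box2 at -0.41 in hira against WT protoplasts, and in roots AUR2 at -0.04, 3xHMG-box2 at -0.38 and TOPII at -0.14.

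The response to protoplast formation was compared between the genotypes by the difference of the 2 changes. PRL had the largest difference of the 6, a response 1.71 less negative in hira (SE 0.31, 95% interval 0.91 to 2.50), with adjusted p = 0.0544 just outside the threshold. It was called in 2 of 14 alternatives, quantile normalization and the restriction to probe sets with an SD of at least 0.2, and adjusted p ran from 0.0411 to 0.139. For the other 5 genes the difference lay between -0.29 for KINESIN-12B and 0.31 for TOPII, with adjusted p from 0.374 to 0.882, and each 95% interval contained 0. The intervals reached from -0.78 to 0.21 for KINESIN-12B and from -0.51 to 1.12 for TOPII. If protoplast signals sit at the bottom of the measurable range, differences near 0 would not show that the genotypes responded alike. By limma 0 of 6 genes were called in this comparison, where 2.61% of all probe sets were called higher and 2.26% lower. At an unadjusted limma p under 0.05 there was 1 of the 6, PRL, beside 6325 of 22746 probe sets, so PRL does not stand out by that count.

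**Figure D2:**
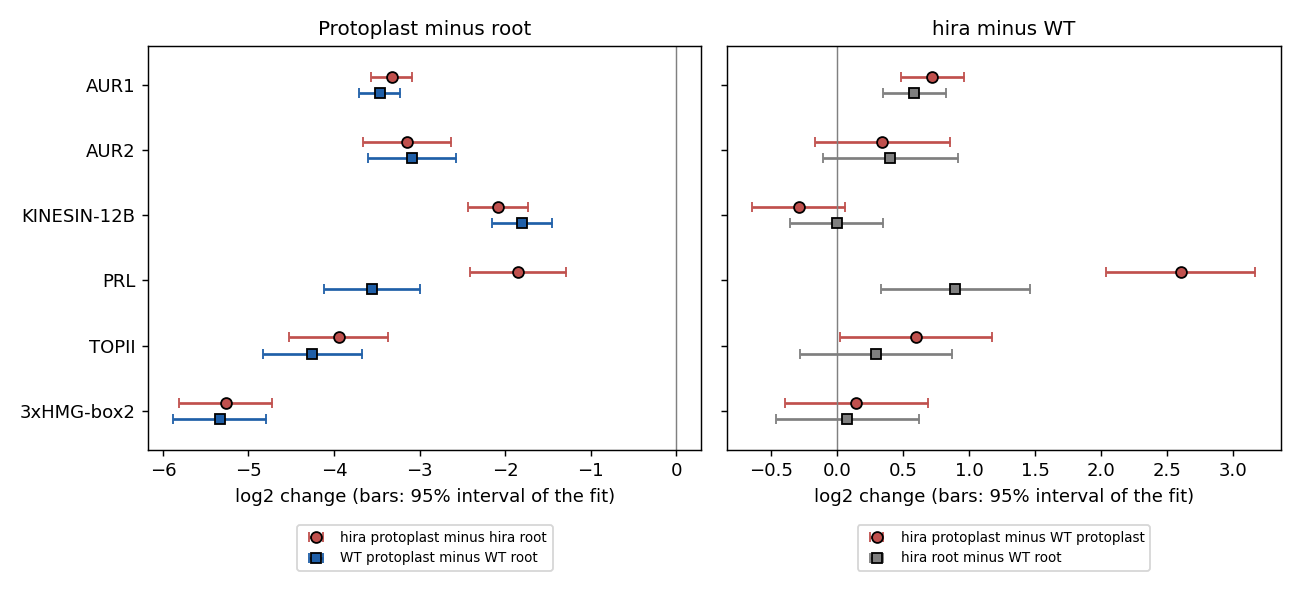
Fitted log2 changes of the 6 genes with 95% intervals: protoplast minus root within hira (circles) and WT (squares) on the left, and hira minus WT within protoplasts (circles) and roots (squares) on the right. Every interval on the left lies below 0, and on the right PRL in protoplasts, at 2.60, stands away from the other genes.

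The 6 transcripts varied together over the 8 arrays, mostly because roots and protoplasts separate. Pearson's r between pairs of them ran from 0.745 for PRL with KINESIN-12B to 0.994 for 3xHMG-box2 with TOPII, over 8 arrays that fall into separate clusters. PRL had the lowest r with the mean profile of the other 5 genes, 0.842, against 0.951 to 0.997 for the rest. Averaged over the 6 genes after scaling each to unit SD, the arrays stood at -0.70 and -0.75 for hira protoplasts, 1.06 and 0.94 for hira roots, -1.06 and -1.08 for WT protoplasts and 0.75 and 0.84 for WT roots. The profile was thus highest in hira roots and lowest in WT protoplasts, with hira above WT in each tissue and no overlap. That order of the mean did not hold for every gene. In protoplasts PRL differed most between the genotypes, at 2.60, and KINESIN-12B ran the other way at -0.29. In roots AUR1 alone was called, a call lost in 11 of 15 alternatives. After quantile normalization AUR2, 3xHMG-box2 and TOPII were lower in hira than in WT roots.

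Among 827 genes with a symbol and an SD of at least 0.5, the 6 with the profile most like this mean over the 8 arrays were RALFL34 (r = 0.996), EMB2786 (r = 0.995), PRXR1 (r = 0.990), PDF2.5 (r = 0.989), UBC37 (r = 0.988) and HVA22C (r = 0.986). RALFL34 encodes a secreted signalling peptide, PRXR1 a peroxidase and PDF2.5 a defensin. Their changes in hira protoplasts against hira roots ran from -1.26 for UBC37 to -7.12 for PDF2.5. In WT protoplasts against WT roots they ran from -1.45 to -6.52 for the same 2 genes. All were picked for likeness to a profile that separates roots from protoplasts, so negative changes were built into the choice.

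A wider list of 123 division loci was drawn up by role, of which 19 had a single-gene probe set, the 6 genes above and 13 others. In hira protoplasts 3 of these 13 fell and 0 rose, where 12.2% and 12% of all probe sets were called lower and higher. In WT protoplasts 3 fell and 1 rose, where 13.9% and 11.7% were. The median changes were -0.80 in hira and -0.73 in WT. Differences were negative for 13 of 13 in hira and 11 of 13 in WT. Over all probe sets, both protoplast arrays lay below both root arrays for 53.5% in hira and 26.8% in WT. A negative sign is therefore common in hira. Some of these differences were close to 0, such as -0.01 for AT1G07270 and -0.08 for KEU in WT. The medians over all probe sets were -0.02 and 0.03. Averaged over the genotypes, 5 of the 13 were called lower and 0 higher. In that average 18.3% of all probe sets were called lower, and 3869 of 22746 higher. Most of the 13 did not pass in either genotype alone, with 2 arrays a group. The size of the falls of the 6 chosen genes does not describe the list.

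Relatives of the 6 genes on the list were 3xHMG-box1 and AUR3. 3xHMG-box1, the paralogue of 3xHMG-box2, had values of -1.28 and -1.29 in hira protoplasts, against 1.72 and 1.76 in hira roots, and -1.13 and -1.23 in WT protoplasts, against 1.13 and 1.34 in WT roots. It fell by 3.03 in hira (SE 0.08, adjusted p = 0.000366) and fell by 2.41 in WT (SE 0.08, adjusted p = 0.000656). AUR3, an Aurora kinase of the centromere region, stood at -1.39 in hira protoplasts against hira roots (SE 0.53, adjusted p = 0.135) and fell by 2.14 in WT protoplasts (SE 0.53, adjusted p = 0.0455). The WT call of AUR3 was lost in 7 of 15 alternatives, including the WT arrays alone and the removal of WT root replicate 2 or of any 1 protoplast array, with adjusted p from 0.0132 to 0.155. 3xHMG-box1 was also called higher in hira roots, at 0.50 (SE 0.08, adjusted p = 0.0336), a call lost in 11 of 15 alternatives with adjusted p from 0.0271 to 0.894.

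Genes of replication and chromosome structure, ICU2 and HTR12, passed in hira and missed the threshold in WT, and the difference between the genotypes was not called for either. ICU2, the catalytic subunit of DNA polymerase alpha, had 0.09 and -0.28 in hira protoplasts, against 1.496 and 0.99 in hira roots, a fall of 1.34 (SE 0.22, adjusted p = 0.0158). In WT its value was -0.73 (SE 0.22, adjusted p = 0.0729), and the difference of responses was -0.61 with adjusted p = 0.272. HTR12, the centromeric histone CENH3, had -0.09 and -0.11 in hira protoplasts, against 1.496 and 0.89 in hira roots. It fell by 1.29 in hira (SE 0.21, adjusted p = 0.0161) and stood at -0.19 in WT, and the difference of responses was -1.10 with adjusted p = 0.105. Both calls were lost with the hira arrays alone (adjusted p = 0.0734 for ICU2 and 0.0733 for HTR12), the call of ICU2 also without hira protoplast replicate 2 and that of HTR12 without hira protoplast replicate 1 or 2. Over all alternatives adjusted p ran from 0.00873 to 0.0832 for ICU2 and from 0.00764 to 0.0914 for HTR12. Both genes were also called higher in hira than in WT roots, ICU2 by 1.24 (adjusted p = 0.0394) and HTR12 by 1.09 (adjusted p = 0.0487). Those root calls were lost in 10 and 12 of 15 alternatives. ATSMC2, a condensin subunit, and AT1G07270 (CDC6B), a licensing factor, did not pass. They stood at -0.29 and -0.26 in hira and at -0.81 and -0.01 in WT. ATSMC2 was called lower in WT in 1 of 15 alternatives, the WT arrays alone (adjusted p = 0.0307). AT1G07270 was called lower in hira in 2 of 14 alternatives, 1 of them with a single array left in hira roots.

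TSO1 and SIM stood out among the regulators. TSO1, a CXC-domain protein that in Arabidopsis restrains division in floral meristems, had -0.21 and -0.29 in hira protoplasts, against 1.04 and 0.21 in hira roots, and -2.59 and -3.23 in WT protoplasts, against 1.52 and 1.17 in WT roots. Its change was -0.87 in hira (SE 0.36, adjusted p = 0.158), and it fell by 4.26 in WT (SE 0.36, adjusted p = 0.00313). The response was 3.38 less negative in hira (SE 0.51, adjusted p = 0.0417), and the WT protoplast arrays lay far below all others, as they did for PRL. SIM (SIAMESE), a CDK inhibitor that promotes endoreduplication, had -0.08 and -0.39 in hira protoplasts, against 0.08 and 0.41 in hira roots, and 1.14 and 0.90 in WT protoplasts, against -0.43 and -0.14 in WT roots. The value for SIM was -0.48 in hira (adjusted p = 0.153), and it rose by 1.30 in WT (SE 0.19, adjusted p = 0.0116). That rise was not called in 2 of 15 alternatives, the WT arrays alone (adjusted p = 0.0531) and without WT protoplast replicate 1. The SIM response was 1.78 lower in hira (SE 0.27, adjusted p = 0.0437). Leaving out a single array ended the difference call of TSO1 in 7 cases of 8 and that of SIM in 7 of 8. The SIM call was also lost with the replicate block and with the trend and robust variance model, so in 9 of 14 alternatives, with adjusted p from 0.0192 to 0.143 for TSO1 and from 0.0343 to 0.137 for SIM over 14 alternatives.

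The remaining measured genes of the list did not pass in either genotype. They were the spindle checkpoint genes BUBR1 and BUB3.1 and the cell plate vesicle fusion gene KEU. The others were the phragmoplast kinesin gene AT4G14330 (PAKRP2) and HBT, a subunit of the anaphase-promoting complex. In WT, BUB3.1 was called lower in 1 of 15 alternatives, the SD filter (adjusted p = 0.0360). HBT was called higher in WT in 1 of 14, with a single WT protoplast array left. AT4G14330 stood at -1.28 in hira and at -1.29 in WT (SE 0.53 each, adjusted p = 0.160 and 0.145). Its hira root arrays lay far apart, at 1.83 and 0.21, and its hira value was -0.47 without replicate 1 and -2.08 without replicate 2, called lower in both cases with 1 array left in that group. Over 15 alternatives the adjusted p in hira ran from 0.00322 to 0.388. In WT it was called without either hira root array (adjusted p = 0.00468) and with the WT arrays alone (adjusted p = 0.0278), in a range from 0.00468 to 0.322. Of 3 more genes whose names or synonyms matched division terms, TOP3A, a topoisomerase that resolves recombination intermediates, stood at -1.11 in hira (adjusted p = 0.0891) and fell by 3.24 in WT (SE 0.35, adjusted p = 0.00557). POLH and KINESIN-13A stood at -0.23 and -1.12 in hira and at -0.57 and -0.46 in WT, without passing. The WT values rested on single root arrays: POLH stood at -1.15 (adjusted p = 0.00889) without WT root replicate 1 and at 0.00 without replicate 2, and KINESIN-13A at 0.06 without replicate 1 and at -0.97 (adjusted p = 0.00851) without replicate 2. In hira, KINESIN-13A was called lower in 4 of 15 alternatives, among them the hira arrays alone (adjusted p = 0.0145), with adjusted p from 0.00373 to 0.254.

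**Figure D3:**
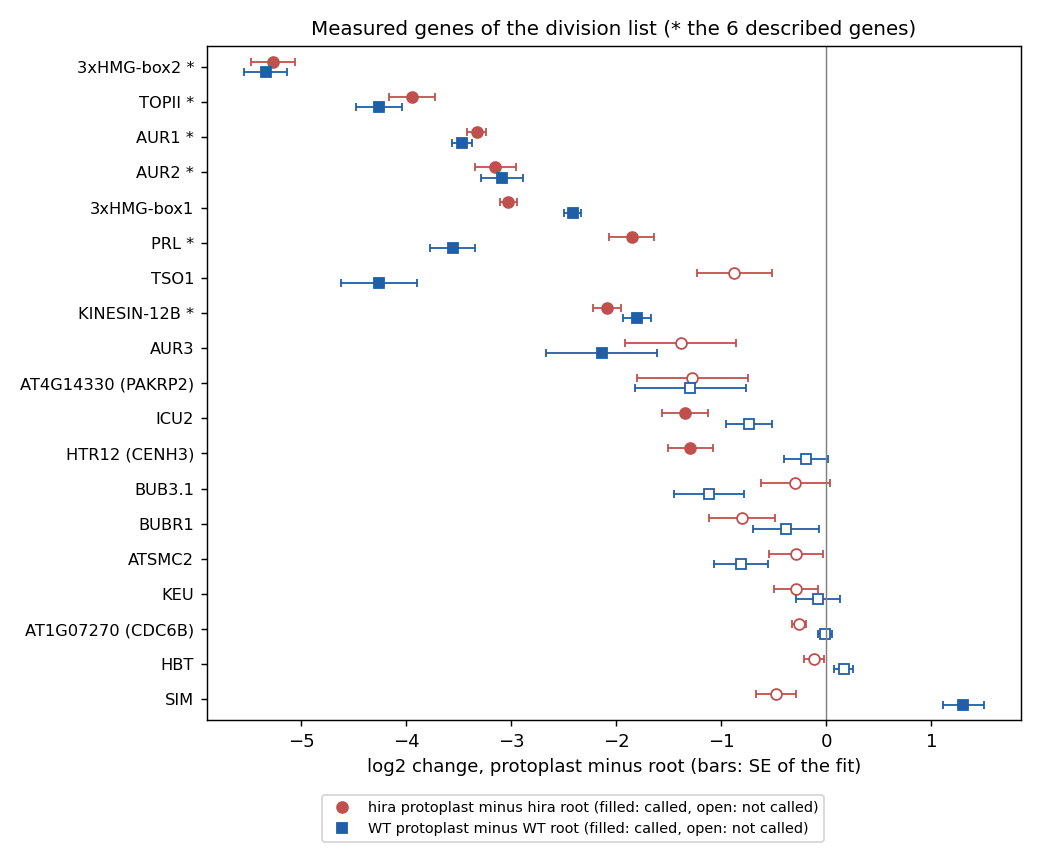
Protoplast minus root changes of the 19 measured genes of the division list in hira (red circles) and WT (blue squares), with SE bars, sorted by their mean. Filled symbols were called, and the 6 described genes, marked with an asterisk, hold most of the strongly negative values, from -5.34 for 3xHMG-box2 in WT to -1.80 for KINESIN-12B in WT.

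RNA controls and other root markers moved with some of these comparisons. The 5′ minus 3′ difference of the first GAPDH control pair averaged -0.09 ± 0.01 for hira protoplasts and 0.04 ± 0.12 for hira roots, against 0.62 ± 0.19 for WT protoplasts and -2.22 ± 0.04 for WT roots (SD, n = 2). The first actin pair gave 0.26 ± 0.06 for hira protoplasts and -0.25 ± 0.13 for hira roots, against 1.52 ± 0.32 for WT protoplasts and -1.81 ± 0.47 for WT roots. WT roots had the lowest and WT protoplasts the highest values in all 4 control pairs, so comparisons that use WT carry this shift, and its part in the falls and in the PRL, TSO1 and SIM differences was not tested. In each pair the hira groups lay closer together than the WT groups.

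**Figure D4:**
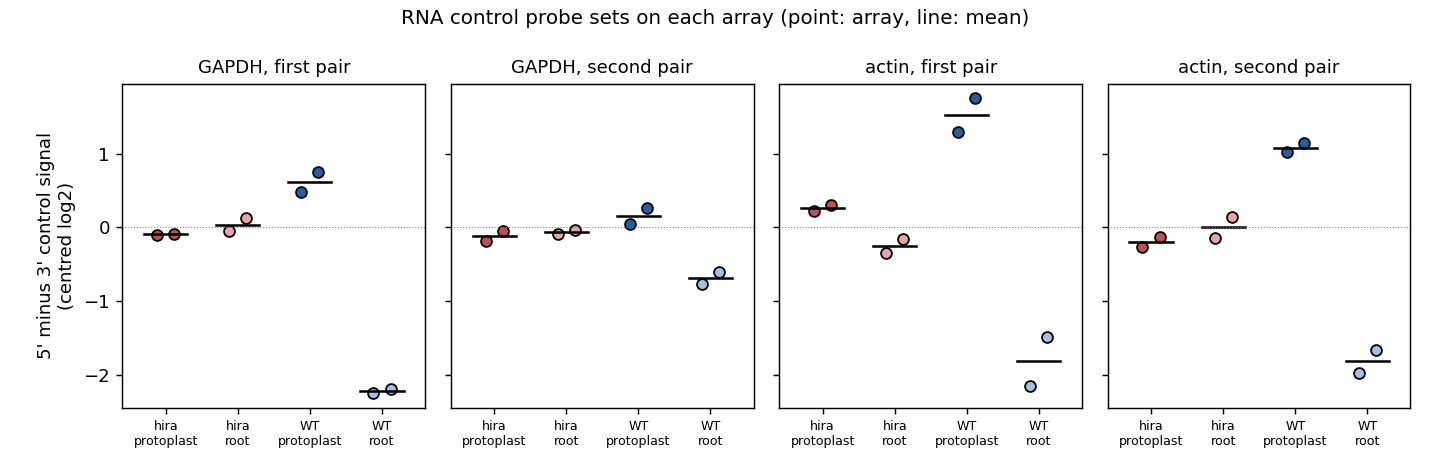
Difference between the 5′ and 3′ probe sets of GAPDH and actin controls on each array, in centred log2 units, by group, with a line at the mean of 2 arrays. WT roots lie lowest and WT protoplasts highest in each of the 4 pairs, while hira protoplasts and hira roots lie between them.

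Of 24 marker loci for root cell types and green tissue 6 had a single-gene probe set, and sums over them carry no level because values are centred. In hira protoplasts 1 of the 6 was called lower, AT1G62500 (CO2, a cortex gene) at -0.27, where 12.2% of all probe sets were. That probe set was nearly flat, with a range of 0.28 over the 8 arrays. In WT protoplasts 3 were called lower, where 13.9% of all probe sets were. They were the stem cell niche gene BBM at -2.34, the receptor kinase gene CR4 (ACR4) at -1.42 and the vascular regulator LHW at -1.84. EXPA7 of root hairs stood at -2.85 in hira and 1.86 in WT, and RCA of green tissue at -0.66 and 0.12, without passing. BBM averaged -0.25 ± 0.50 in hira protoplasts and 0.23 ± 0.47 in hira roots, against -0.54 ± 0.33 in WT protoplasts and 1.80 ± 0.32 in WT roots (SD, n = 2). In hira all 6 markers had negative differences, BBM of -0.49 with overlapping arrays (adjusted p = 0.435). CR4 stood at -0.97 (adjusted p = 0.0637) and LHW at -0.99 (adjusted p = 0.156), with both protoplast arrays below both root arrays. Over all probe sets 53.5% had that order in hira. The part of these markers in the changes was not tested.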

How the data were processed

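The deposited table holds 22810 probe sets on 8 arrays, processed with GCRMA (version not given) per the submitters' processing notes. The authors' values are treated as log2, the scale GCRMA gives, since no log base is given in the sources used here. Each probe set's median was 0, so they are centred. After 64 control probe sets were set aside, 22746 were tested. The platform annotation gave 13513 of all probe sets 1 gene and 503 several; RefSeq matched 13436. The 4 group means were fitted with limma 3.58.1 in R 4.3.3 (lmFit, eBayes, 4 residual and 0.742 prior degrees of freedom), with two-sided tests and without a low-value filter, since no level is kept. The fit was tested on simulated data. Members and lists were chosen with earlier results of these data known. Named are the 6 genes, every measured gene of the division list, name matches and the 6 most similar profiles. Samples took groups and replicate numbers from titles. The number of arrays limits the precision. Alternatives covered normalization, array centring, an SD filter, the variance model, the arrays fitted, the replicate number and each array left out. Probe sequences were not used here.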

Additional observations from a re-analysis of the deposited data

Results flagged for a closer look

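Of the named division genes, 2 had responses to protoplast formation that differed between the genotypes by the limma test of that difference. TSO1 had a response 3.38 less negative in hira than in WT, and SIM had one of -1.78 relative to WT. The call was lost in 7 of 14 alternatives for TSO1 and in 9 of 14 for SIM. Every group here has 2 arrays, so no array was tested as an outlier.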

How the results depend on the processing

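All 6 genes stayed called lower in hira and in WT protoplasts under every alternative. The calls between genotypes did not. In roots, 0 of the 6 genes were called with the root arrays alone, after quantile normalization, with the SD filter or with the replicate block, and 0 to 1 when an array was left out. In protoplasts, the 2 higher calls gave way to 1 lower call (KINESIN-12B) with the protoplast arrays alone, to 1 higher and 1 lower after quantile normalization, to 1 higher with the SD filter, and to 0 to 2 higher with an array left out. For the difference of responses, 1 was called after quantile normalization or with the SD filter. Over all probe sets the counts were, for WT protoplasts against WT roots, 5817, with 2331 on those arrays alone and 3747 to 5377 with an array left out. For hira protoplasts against hira roots they were 5505 and 1872 to 5628. For hira against WT roots they were 2090, with 0 on the root arrays alone (4548 at an unadjusted p under 0.05). They were 1332 after quantile normalization, 2677 of 15916 with the SD filter and 1030 with the replicate block. They ran from 495 to 3085 with an array left out. For hira against WT protoplasts they were 1885 (1149 higher, 736 lower), with 695 on those arrays alone, 4773 with trend and robust, where the balance turned to 1683 higher and 3090 lower, 789 with the replicate block and 139 to 1559 with an array left out. Centring on the median gave 1186 higher and 533 lower in that comparison. Quantile normalization gave 1175 higher and 935 lower, and the SD filter 1102 and 371 of the 15916 probe sets kept. For the difference they were 1108, with 1342 after quantile normalization and 1403 of 15916 with the SD filter. They were 610 with trend and robust, 302 with the replicate block and 142 to 2185 with an array left out. For the mean response they were 8037 and 5241 to 7744. With an array left out, AT4G14330 ran from -0.86 to 0.76 in hira against WT roots, and RCA from -2.47 to 1.15 in hira protoplasts against hira roots and from -1.17 to 0.64 in the mean response, the lows without hira root replicate 1 and the highs without hira root replicate 2. The replicate numbers are treated as shared names only: same-numbered arrays deviated together with r from -0.10 to 0.05. Deviations of the 2 arrays of a group mirror each other, so both arrays of a group give the same answer. Only the hira root arrays were closest to their own number in every other group, with r of 0.0485, 0.0189 and 0.0084. The causes of these changes were not tested.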
